A study of Mus musculus with 8 samples.

Results

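The 6 genes described here encode parts of the interleukin 12 (IL-12) and interleukin 18 (IL-18) pathways: the IL-18 receptor chains Il18r1 and Il18rap, the IL-12 receptor chains Il12rb1 and Il12rb2, the IL-12 subunit Il12a and the transcription factor Stat4. They were chosen by name, as the genes whose probe sets carry a single one of these symbols. All 6 were found, of 17097 genes with such a probe set, and they had 7 probe sets in all, with 2 for Il18rap and 1 for each of the others. All 6 passed the filter on dim values, under which 11583 genes were tested.

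The study measured RNA of sorted mouse bone marrow progenitors on 8 one-colour Affymetrix arrays, in 4 groups of 2. The groups were Nfil3 knockout (KO) prepro NK cells (preproNK), wild type (WT) preproNK, KO all-lymphoid progenitors (ALP) and WT ALP. All mice carried an ID2-GFP reporter, whose fluorescence follows the Id2 gene, and per the labels' protocols the cells were sorted after lineage depletion and lysed directly. Nfil3 is a basic leucine zipper transcription factor needed for natural killer (NK) cell development. ALP can give rise to all lymphoid cells, and preproNK stand later on the path to NK cells. Age, sex, strain and the number of mice per sample are not given in the labels, so the spread between the arrays of a group may be partly technical. Replicate 1 and replicate 2 were processed on separate dates.

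IL-12 is a secreted pair of subunits, encoded by Il12a and Il12b, that binds a receptor made of the Il12rb1 and Il12rb2 products. The receptor acts through the kinases Jak2 and Tyk2 on Stat4, which enters the nucleus and binds the interferon gamma gene among others. IL-18 is a relative of interleukin 1. It binds the Il18r1 product, which recruits the Il18rap product as a signalling partner, and acts through the adaptor Myd88 on NF-kB. In mature NK cells the 2 cytokines together are a strong stimulus for interferon gamma production.

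The WT preproNK replicate 2 array stood apart. The SD of its log2 values was 1.39, where the other 7 arrays had 1.55 to 1.88, and 310 tested genes were brighter than 8 on the log2 scale, where the other arrays had 682 to 1498. Its correlation over tested genes was 0.747 with WT ALP replicate 2 and 0.621 with WT preproNK replicate 1. The log2 value of Nfil3 was 3.41 to 4.15 on the 4 KO arrays and 4.74 to 6.89 on the 4 WT arrays, which did not overlap. Whether its probe set lies in the deleted part is not known. Id2, the gene behind the reporter, averaged 10.17 ± 0.44 in KO preproNK, 9.53 ± 1.64 in WT preproNK, 6.05 ± 0.15 in KO ALP and 6.88 ± 0.08 in WT ALP (SD, n = 2 each). The sex-linked gene Xist was at 7.94 to 9.30 on replicate 2 arrays of KO preproNK, KO ALP and WT ALP and at 3.10 to 4.20 on the other 5 arrays. The Y-linked gene Eif2s3y was at 6.60 to 7.04 on replicate 1 arrays and 4.19 to 5.22 on replicate 2 arrays, and Kdm5d at 6.35 to 6.78 and 4.25 to 5.21, so both split all 8 arrays by replicate number. WT preproNK replicate 2 was the lowest array for both Y-linked genes and was also low for Xist.

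Across the 6 members, 2 moved in opposite directions between the stages. Il18r1 rose in KO preproNK relative to KO ALP, and Il12a fell. Of the other members, Il12rb1 passed the test only over the mean of both genotypes, and Il18rap, Il12rb2 and Stat4 passed in none of the 6 comparisons. The plot of log2 values by array shows all 6.

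**Figure D1:**
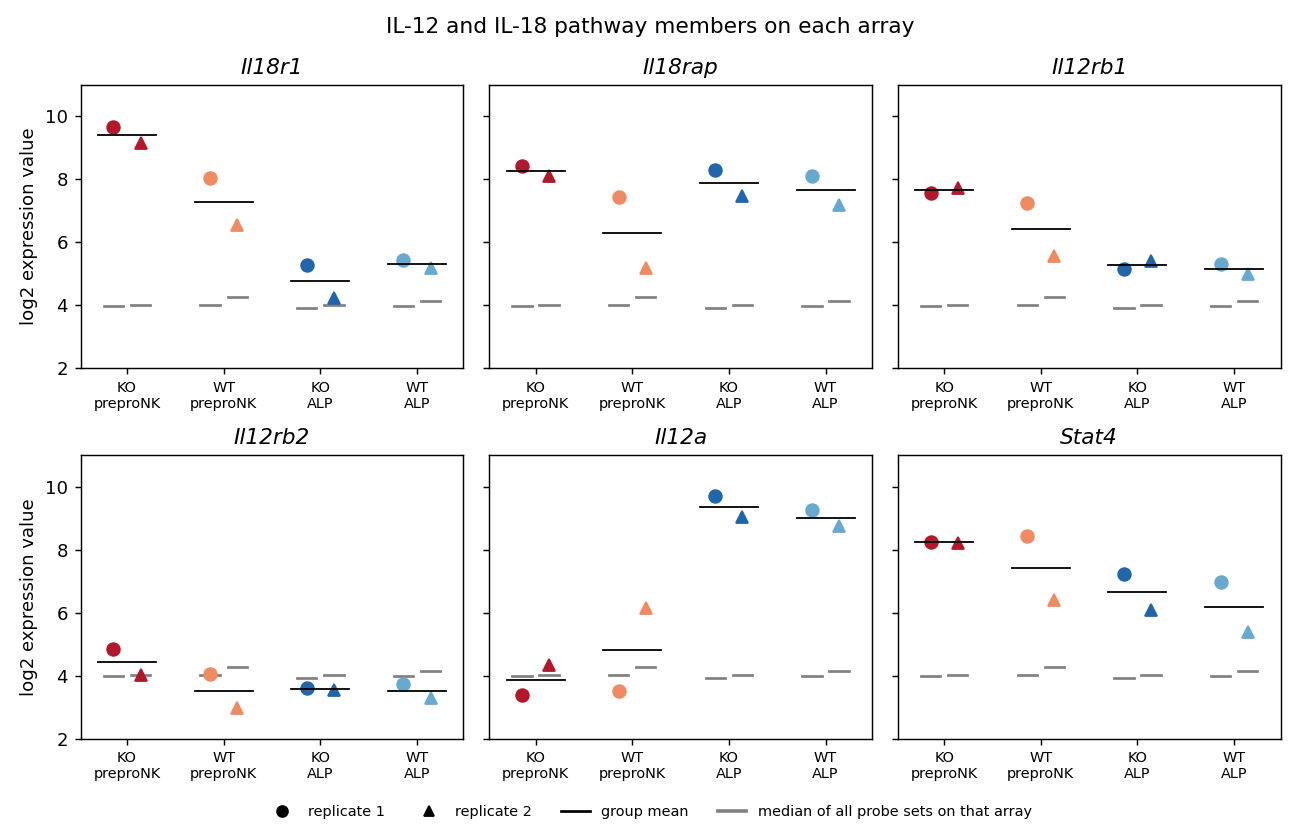
Log2 expression value (vertical axis) of the 6 members on each of the 8 arrays, by group (horizontal axis). Circles are replicate 1, triangles replicate 2, black lines group means and grey lines the median of all 45141 probe sets on that array. Il18r1 lies at 6.54 to 9.66 in preproNK and 4.24 to 5.44 in ALP, Il12a at 3.37 to 6.14 and 8.75 to 9.70, and Il12rb2 between 1.28 below (WT preproNK replicate 2) and 0.87 above (KO preproNK replicate 1) the array median.

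Il18r1 (Entrez gene 16182) encodes the IL-18 binding chain of the receptor and lies on chromosome 1 at 40465552 to 40500854 (GRCm38.p6). Its neighbour Il18rap (Entrez gene 16174), at 40515362 to 40551707, encodes the accessory chain and starts 14507 bases beyond it. Both belong to a cluster of interleukin 1 receptor family genes that also holds Il1r2, Il1r1, Il1rl2 and Il1rl1. Because these neighbours differed in their pattern over the 4 groups, the bases before the most upstream start of each are shown, from RefSeq on build GRCm38.p6, with capitals marking a match to an ETS site (AGGAAGT). For Il18r1 the 133 bases between the end of Il1rl1 and the start are shown, and for Il18rap 250 bases.
Il18r1, chr1:40465419-40465551, + strand: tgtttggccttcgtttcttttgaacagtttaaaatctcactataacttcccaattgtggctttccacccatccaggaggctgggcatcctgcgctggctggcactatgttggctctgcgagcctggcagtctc
Il18rap, chr1:40515112-40515361, + strand: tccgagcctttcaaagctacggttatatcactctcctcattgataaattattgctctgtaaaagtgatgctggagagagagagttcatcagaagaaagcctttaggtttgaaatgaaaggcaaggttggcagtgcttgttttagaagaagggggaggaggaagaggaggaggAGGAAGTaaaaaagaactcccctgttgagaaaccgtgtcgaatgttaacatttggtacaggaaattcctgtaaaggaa

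RefSeq windows were found for 5 of the 6 members, 9 in all, and were searched on both strands for 4 motifs chosen after the expression values were seen. These were the Nfil3 site (TTACGTAA or TTATGTAA), a STAT site (TTCNNNGAA), the T-box site (AGGTGT) and the ETS site (AGGAAGT). No member window held the Nfil3 site, which is present in 0.931% of all 32851 windows of this length. The Il18rap window held 1 ETS site, a match found in 7.69% of all windows. Neither the whole 250-base window of the Il18r1 start shown nor the window that overlaps it held any of the 4, and the third window of Il18r1, further downstream, held 2 STAT sites, a match found in 7.02% of all windows. The Il12rb2 window held 1 STAT site, and both Stat4 windows held none of the 4. A match describes letters in a window and does not show binding.

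Il18r1 was at log2 values of 9.66 and 9.17 in KO preproNK, against 5.28 and 4.24 in KO ALP. In WT preproNK it was at 8.04 and 6.54, against 5.44 and 5.19 in WT ALP. Every preproNK array was above every ALP array, and KO preproNK was the highest group. In such bulk samples more cells with the RNA and more RNA per cell cannot be told apart. The log2 difference between preproNK and ALP was 4.65 (SE 0.58) in KO, a 25.1-fold difference, and it was called by limma (adjusted p = 0.0109). In this comparison 203 of 11583 genes were called, a background of 1.75%, and 2 of the 6 members were. In WT the difference was 1.98 (SE 0.58), or 3.94-fold, and was not called (adjusted p = 0.362). It was 2.73 without WT preproNK replicate 2 and 1.22 without replicate 1. With replicate number as a block and without WT preproNK replicate 2 it was 2.44. Each of these fits leaves WT preproNK as a lone sample, so its own spread does not enter the test. Only 11 genes were called in WT (4 higher, 7 lower), a background of 0.095%, and 0 of the 6 members were, while 852 genes had an unadjusted p under 0.05. Over the mean of both genotypes Il18r1 rose by 3.31 (SE 0.41, adjusted p = 0.00766), and the difference was 3.49 in the replicate 1 arrays and 3.14 in the replicate 2 arrays. There 391 genes were called, a background of 3.38%, and 3 of the 6 members were.

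Leaving out any 1 array of KO preproNK or KO ALP, which leaves a lone sample assumed to vary like the other groups, gave Il18r1 differences of 4.13 to 5.17 in KO with adjusted p from 0.0925 to 0.198. The mean over genotypes lost its call without KO preproNK replicate 1 (3.19, adjusted p = 0.0699) or replicate 2 (3.44, adjusted p = 0.0525).

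Il18rap showed no such stage pattern. Its brighter probe set was at 8.42 and 8.10 in KO preproNK, against 8.31 and 7.48 in KO ALP, and these groups overlapped. In WT preproNK it was at 7.43 and 5.19, against 8.11 and 7.20 in WT ALP, which also overlapped. The accessory chain was thus well above the array medians in ALP, where Il18r1 was at its lowest. The log2 difference between preproNK and ALP was 0.37 (SE 0.73, adjusted p = 1) in KO and -1.35 (SE 0.73, adjusted p = 0.81) in WT. The second probe set of Il18rap, dimmer on every array, gave 0.14 (SE 0.67) and -0.86 (SE 0.67). It was at 7.22 and 6.87 in KO preproNK and 5.99 and 4.86 in WT preproNK, and at 7.30 and 6.51 in KO ALP and 7.20 and 5.38 in WT ALP. Both probe sets were lowest on the WT preproNK replicate 2 array. Without that array the WT stage difference of the brighter probe set was -0.23, and without WT preproNK replicate 1 it was -2.46. Either fit leaves a lone WT preproNK sample.

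Il12rb1 (Entrez gene 16161, on chromosome 8 at 70808360 to 70823542) encodes the IL-12 receptor chain that binds the Il12b product and is shared with the IL-23 receptor. It was at 7.58 and 7.73 in KO preproNK, against 5.14 and 5.42 in KO ALP. In WT preproNK it was at 7.24 and 5.58, against 5.32 and 5.0 in WT ALP. All preproNK arrays were above all ALP arrays, with WT preproNK replicate 2 the closest to ALP. The log2 difference between preproNK and ALP was 2.38 (SE 0.55) in KO, or 5.19-fold, and 1.25 (SE 0.55) in WT, or 2.38-fold. Neither was called (adjusted p = 0.0937 and 0.684). The KO difference was called once replicate number was a block (adjusted p = 0.0388) and with array weights (adjusted p = 0.00162). These settings, like leaving out a WT preproNK array, cannot change the size of the KO difference. They change only the estimate of the spread, so such calls are not separate evidence. Over the mean of both genotypes Il12rb1 rose by 1.81 (SE 0.39, adjusted p = 0.0492), a value at the edge of the threshold. That call was lost without any 1 of the KO or ALP arrays (adjusted p from 0.139 to 0.221). The WT difference was 2.09 without WT preproNK replicate 2 and 0.42 without replicate 1, each with a lone WT preproNK sample.

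Il12rb2 (Entrez gene 16162) encodes the chain that completes the high-affinity IL-12 receptor and recruits Stat4. It lies on chromosome 6 at 67285986 to 67376293 and was below the array's median on 5 of the 8 arrays. Its log2 values were 4.85 and 4.03 in KO preproNK, 4.04 and 2.98 in WT preproNK, 3.60 and 3.55 in KO ALP and 3.74 and 3.29 in WT ALP. Of these, KO preproNK replicates 1 and 2 and WT preproNK replicate 1 were above their array's median, by 0.87, 0.03 and 0.02, and WT preproNK replicate 2 and the ALP values were below it. The KO groups did not overlap between the stages and the WT groups did. The stage difference was 0.87 (SE 0.48, adjusted p = 0.71) in KO and -0.01 (SE 0.48, adjusted p = 1) in WT. With values below an array's median set to that median these were 0.47 and 0.10. A difference between the stages was not detectable here.

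Il12a (Entrez gene 16159, on chromosome 3 at 68690644 to 68698550) encodes the p35 subunit of IL-12, which also pairs with the Ebi3 product in interleukin 35. It is the ligand gene of the set and had its highest values in ALP. The 250 bases before its most upstream start are shown because it had the largest stage difference of the 6, with capitals marking the T-box site (AGGTGT), a match found in 11.8% of all windows. A second Il12a window held none of the 4 motifs.
Il12a, chr3:68690394-68690643, + strand: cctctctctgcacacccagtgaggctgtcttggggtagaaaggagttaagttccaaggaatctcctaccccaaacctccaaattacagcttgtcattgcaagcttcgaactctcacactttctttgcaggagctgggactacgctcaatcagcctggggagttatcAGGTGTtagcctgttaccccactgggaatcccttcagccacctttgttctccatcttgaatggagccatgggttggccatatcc

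Il12a was at 3.37 and 4.33 in KO preproNK, against 9.70 and 9.03 in KO ALP. In WT preproNK it was at 3.51 and 6.14, against 9.26 and 8.75 in WT ALP. It was high on all 4 ALP arrays and did not overlap with preproNK, where KO replicate 1 and WT replicate 1 were below their array's median. The highest preproNK value, 6.14, came from WT preproNK replicate 2. In KO, Il12a fell by 5.51 on the log2 scale in preproNK relative to ALP (SE 0.81, adjusted p = 0.0199), or 45.6-fold. With the 1 KO preproNK value below its array's median set to that median, the difference was 37.0-fold. In WT the log2 difference was -4.18 (SE 0.81), or 18.1-fold lower (15.2-fold with that floor), and was not called (adjusted p = 0.149). Over the mean of both genotypes Il12a fell by 4.85 (SE 0.57, adjusted p = 0.00643), with -6.04 in the replicate 1 arrays and -3.65 in the replicate 2 arrays.

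The WT value of Il12a depended on which WT preproNK arrays were used. It was -5.49 without replicate 2 and -2.86 without replicate 1. Either fit leaves WT preproNK as a lone sample, so the wide spread between its arrays does not enter the test. The KO call was lost without any 1 of the 4 KO arrays (-5.99 to -5.03, adjusted p from 0.131 to 0.256), and the mean lost its call without KO preproNK replicate 1 (-4.61, adjusted p = 0.0616). Il12b, which encodes the other IL-12 subunit, was at 3.01 to 4.07 on all 8 arrays and below the median of each. It was therefore not tested. The IL-12 subunit RNA in ALP was thus above background for 1 of the 2 subunits.

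Stat4 (Entrez gene 20849, on chromosome 1 at 51987106 to 52107189) encodes the main signal transducer of IL-12. It was at 8.24 and 8.22 in KO preproNK, against 7.21 and 6.07 in KO ALP. In WT preproNK it was at 8.43 and 6.41, against 6.97 and 5.38 in WT ALP. The KO groups did not overlap, the WT groups did, and replicate 2 was the lower array in every group. The stage difference was 1.59 (SE 0.78, adjusted p = 0.612) in KO and 1.24 (SE 0.78, adjusted p = 0.875) in WT. The WT value was 2.25 without WT preproNK replicate 2 and 0.23 without replicate 1, each with a lone WT preproNK sample. Leaving out either array cannot change the KO difference, only its test. Over the mean of both genotypes it was 1.41 (SE 0.55, adjusted p = 0.278). It was called there once replicate number was a block (adjusted p = 0.0453), and it was 1.92 without WT preproNK replicate 2.

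The order of the group means was not the same for every member. Il18r1 averaged 9.41 ± 0.35 in KO preproNK, 7.29 ± 1.07 in WT preproNK, 4.76 ± 0.74 in KO ALP and 5.31 ± 0.18 in WT ALP (SD, n = 2 each). KO ALP was thus the lowest group, and neighbours in the order overlapped in ALP only. Il12rb1 averaged 7.65 ± 0.10 in KO preproNK, 6.41 ± 1.18 in WT preproNK, 5.28 ± 0.20 in KO ALP and 5.16 ± 0.23 in WT ALP, again with overlap between the ALP groups only. Stat4 averaged 8.23 ± 0.02, 7.42 ± 1.42, 6.64 ± 0.80 and 6.18 ± 1.12 in the same groups, and each neighbouring pair overlapped. Il18rap averaged 8.26 ± 0.23 in KO preproNK, 6.31 ± 1.58 in WT preproNK, 7.89 ± 0.58 in KO ALP and 7.66 ± 0.64 in WT ALP. Its lowest mean was thus in WT preproNK, and each neighbouring pair in the order overlapped. Il12a averaged 3.85 ± 0.68 in KO preproNK, 4.83 ± 1.86 in WT preproNK, 9.36 ± 0.47 in KO ALP and 9.0 ± 0.36 in WT ALP. The preproNK groups overlapped with each other, as did the ALP groups.

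**Figure D2:**
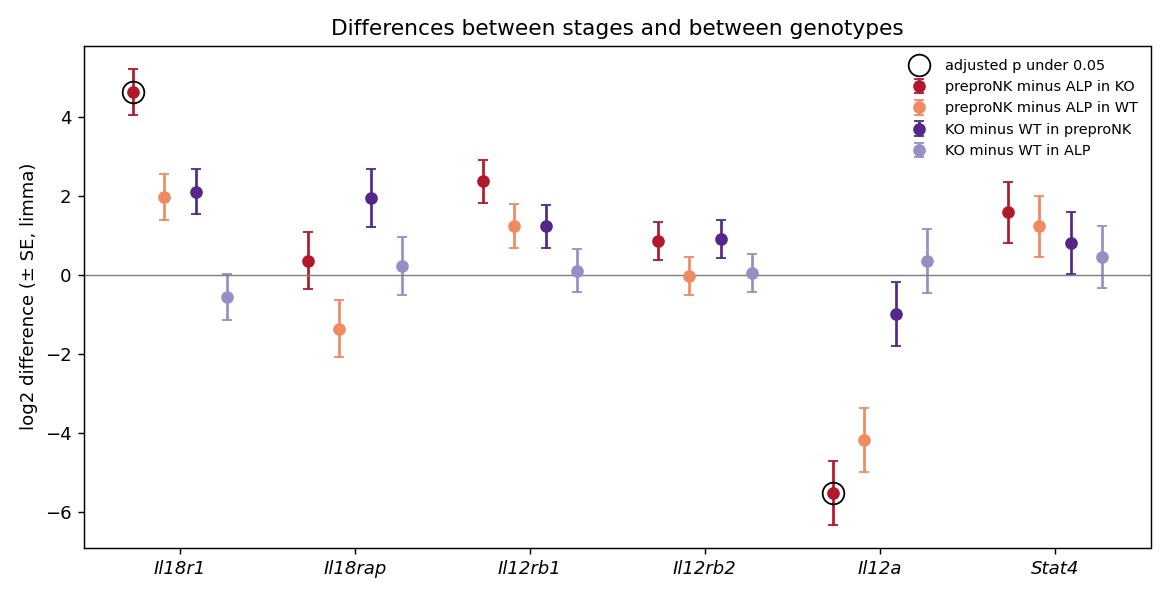
Log2 difference (vertical axis, with the SE from limma as bars) of each member (horizontal axis) between preproNK and ALP in KO and in WT, and between KO and WT in preproNK and in ALP. Rings mark an adjusted p under 0.05, which only Il18r1 (4.65) and Il12a (-5.51) had, both between preproNK and ALP in KO.

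In preproNK, the 4 receptor chains had higher values in KO than in WT, but none was called. On the log2 scale KO minus WT was 2.12 (SE 0.58) for Il18r1, 1.95 (SE 0.73) for Il18rap, 1.24 (SE 0.55) for Il12rb1 and 0.93 (SE 0.48) for Il12rb2, each with an adjusted p of 0.613. KO and WT arrays did not overlap for Il18r1, Il18rap or Il12rb1, but with 2 arrays per group this is weak evidence. How many of all tested genes were so separated was not counted, and 57.1% of them were higher in KO. Stat4 differed by 0.81 (SE 0.78) and Il12a by -0.97 (SE 0.81), with overlapping groups. The background here was 0%, as limma called 0 of 11583 genes, with 625 at an unadjusted p under 0.05. A block for replicate number gave 10 calls, none of them a member. Over all tested genes KO minus WT had a median of 0.147.

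The size of these differences depended on which WT preproNK array was used. Without WT preproNK replicate 2 they were 1.37 for Il18r1, 0.84 for Il18rap, 0.41 for Il12rb1 and 0.41 for Il12rb2. They were 0.34 for Il12a and -0.20 for Stat4 there. Without WT preproNK replicate 1, which leaves the array with the narrow range, the same receptor chains gave 2.88, 3.07, 2.08 and 1.46. In that setting Il12a gave -2.29 and Stat4 1.82. Either fit leaves WT preproNK as a lone sample, so its own spread does not enter the test. Within replicates, the Il18r1 difference was 1.61 for replicate 1 and 2.63 for replicate 2. That of Il12rb1 was 0.34 and 2.15, that of Il18rap 0.99 and 2.91, and that of Stat4 -0.19 and 1.80.

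In ALP, KO and WT values of the 6 members overlapped throughout. The log2 difference between KO and WT ranged from -0.55 (SE 0.58) for Il18r1 to 0.46 (SE 0.78) for Stat4, and all 6 had an adjusted p of 1. The background was 0%, with 0 of 11583 genes called by limma, and 5 had an unadjusted p under 0.05. The interaction, which asks whether the knockout difference differs between the stages, was 2.67 (SE 0.82) for Il18r1, 1.71 (SE 1.03) for Il18rap, 1.13 (SE 0.77) for Il12rb1, 0.88 (SE 0.68) for Il12rb2, 0.34 (SE 1.10) for Stat4 and -1.33 (SE 1.14) for Il12a. Each had an adjusted p of 1. By limma 0 genes (0%) were called for the interaction and 183 had an unadjusted p under 0.05. The knockout comparison in preproNK and the stage comparison in KO share the KO preproNK arrays.

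Markers of T cells also had their highest values in KO preproNK. The mean log2 value over the 11 T cell markers in the table was 8.35 and 8.0 in KO preproNK, 6.54 and 5.57 in WT preproNK, 4.47 and 4.45 in KO ALP and 4.55 and 4.61 in WT ALP. Of the 11, 10 were above the array's median on both KO preproNK arrays and 10 and 9 on the WT preproNK arrays. All 10 tested T cell markers had higher means in preproNK than in ALP in both genotypes, with median differences of 3.622 in KO and 0.997 in WT. Of the 10, limma called 9 higher in KO and 0 in WT, beside 1.75% and 0.095% of all tested genes. Cd3e, a chain of the T cell receptor complex, was at 9.99 and 10.45 in KO preproNK, against 8.48 and 6.59 in WT preproNK. These levels moved with those of Il18r1 and Il12rb1, and their part in the result was not tested. Klrk1, an activating NK receptor also found on T cells, was at 7.79 and 7.26 in KO preproNK, against 5.62 and 4.48 in WT preproNK. Of the 7 tested markers of NK cells and innate lymphoid precursors, 5 were higher in KO than in WT preproNK. Among these 7, 0 were called in that comparison. Ncr1, a receptor that marks NK cells, did not pass the filter on dim values.

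The mean over 8 markers of NK cells and innate lymphoid precursors was 6.29 and 6.06 in KO preproNK and 5.98 and 5.13 in WT preproNK. It was 4.35 and 4.33 in KO ALP and 4.47 and 4.57 in WT ALP. These markers did not all move one way. Of the 7 tested, limma called 3 higher and 1 lower in preproNK over both genotypes, beside 3.38% of all tested genes. The lower one was Cd244a (-1.98, adjusted p = 0.02 by limma). The mean over 9 markers of early lymphoid progenitors was 4.59 and 4.66 in KO preproNK, 4.82 and 4.42 in WT preproNK, 7.57 and 7.15 in KO ALP and 7.43 and 6.62 in WT ALP. That list had the same direction as Il12a. Over 7 markers of dendritic cells, which can make IL-12, the mean was 4.31 and 4.54 in KO preproNK, against 5.04 and 4.90 in KO ALP, so it was lower in KO preproNK without overlap. It was 5.07 and 4.73 in WT preproNK, against 4.98 and 4.92 in WT ALP, which overlapped. Of the 6 tested, 0 were called in KO or in WT, with a median difference of 0.26 in KO, opposite in sign to that of the mean. Over both genotypes 4 of the 6 had higher values in preproNK than in ALP. Only Tcf4, a transcription factor of plasmacytoid dendritic cells, was called there by limma, and it fell by 3.53 (adjusted p = 0.0207). The part of either list in the Il12a result was not tested. The 6 markers of type 2 innate lymphoid cells (ILC2) averaged 6.26 and 6.35 in KO preproNK and 6.82 and 5.52 in WT preproNK, against 4.28 to 4.41 in ALP. Only 3 of the 6 passed the filter on dim values. Each preproNK array had 3 of the 6 above its median, and the ALP arrays had 2 or 3.

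**Figure D3:**
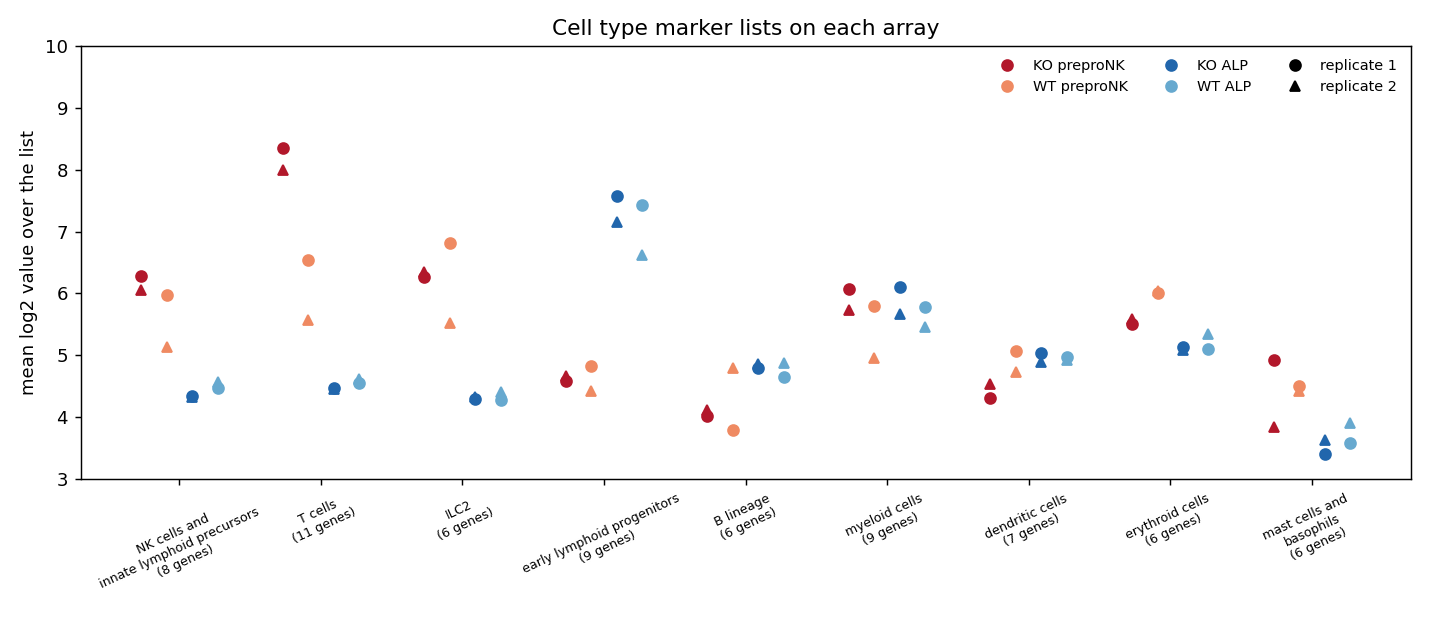
Mean log2 value (vertical axis) over each list of cell type markers (horizontal axis, with the number of genes in the table) on each array, coloured by group, with circles for replicate 1 and triangles for replicate 2. T cell markers are at 8.35 and 8.0 in KO preproNK and 6.54 and 5.57 in WT preproNK, and early progenitor markers are highest in ALP.

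Among the other receptors of these families, Il27ra, the receptor chain for interleukin 27 and a relative of the IL-12 receptor chains, followed the pattern of Il12rb1. It was at 9.21 and 9.35 in KO preproNK, against 6.17 and 6.12 in KO ALP, and rose by 3.14 (SE 0.53, adjusted p = 0.0333). In WT it was at 8.81 and 7.24 in preproNK, against 6.05 and 6.56 in ALP (difference 1.72, adjusted p = 0.404). Il6st, which encodes gp130, the signalling chain of the interleukin 6 and interleukin 27 receptors, had values of 6.55 and 6.26 in KO preproNK, against 8.51 and 8.0 in KO ALP (difference -1.85, adjusted p = 0.293). Of the 2 tested members of this list, 1 was called higher in KO and 0 in WT, beside 1.75% and 0.095% of all tested genes. Of the 3 tested members of the interleukin 1 receptor list, 0 were called in any of the 6 comparisons. Il1r1, whose product binds interleukin 1, was at 6.30 and 6.13 in KO preproNK, against 4.26 and 5.33 in WT preproNK (difference 1.42, adjusted p = 0.613). It lies in the same cluster as Il18r1 and Il18rap and differed between preproNK and ALP by 0.15 in KO and -1.61 in WT.

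Among the other cytokine genes and their inhibitor, 3 were dim. Il12b is described above, Il18 was at 2.38 to 3.14 and Il23a, whose product pairs with that of Il12b to form interleukin 23, at 2.73 to 3.41, below the median of all 8 arrays. Ebi3, a partner of the Il12a product, was above the median on all 8. It was at 5.01 and 5.07 in KO preproNK, against 5.67 and 5.94 in KO ALP (difference -0.77, adjusted p = 0.743). Il18bp, a secreted inhibitor that binds IL-18, was at 4.70 and 4.05 in KO preproNK, against 3.82 and 3.53 in KO ALP (difference 0.70, adjusted p = 0.744). Neither of these 2 tested cytokine genes was called in any comparison.

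Of the 9 tested JAK kinases and other STAT factors, 0 were called in any of the 6 comparisons. Their median difference between preproNK and ALP was 0.374 in KO and 0.173 in WT, beside -0.004 and -0.047 over all tested genes. Jak2, a kinase of the IL-12 receptor, was at 6.23 and 6.63 in KO preproNK, against 4.73 and 4.57 in KO ALP (difference 1.78, adjusted p = 0.506). In WT it was at 7.29 and 4.55 in preproNK, against 4.71 and 5.20 in ALP, so its preproNK values lay on both sides of the ALP values. Tyk2, the other kinase of this receptor, differed by 0.97 in KO (adjusted p = 0.603) and 0.17 in WT (adjusted p = 0.983).

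In the list from Myd88 to NF-kB, 1 of 16 tested members was called higher in KO preproNK than in KO ALP and 0 lower. In WT 0 were called. Over all tested genes 1.75% were called in KO and 0.095% in WT. The median difference was 0.584 in KO and 0.507 in WT, beside -0.004 and -0.047 over all tested genes. The called gene was Irak3, which encodes an inhibitor of interleukin 1 and Toll-like receptor signalling. It was at 6.80 and 6.61 in KO preproNK, against 3.83 and 3.68 in KO ALP, and rose by 2.95 (adjusted p = 0.0111). The KO ALP values were below their array's median, so this size includes a difference near background. In WT preproNK it was at 4.79 and 4.27, below both KO preproNK arrays, and the difference between KO and WT preproNK was 2.18 (unadjusted p = 0.000422, adjusted p = 0.244). Myd88 itself was at 5.45 and 5.64 in KO preproNK, against 4.81 and 4.66 in KO ALP (difference 0.81, adjusted p = 0.439).

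Of 20 tested genes listed as targets of IL-12 and IL-18 signalling, 4 were called higher and 1 lower in KO preproNK relative to KO ALP. Their median difference was 0.934, beside 1.75% called and a median of -0.004 over all tested genes. In WT 0 of the 20 were called, with a median of 0.357, beside 0.095% and -0.047. Tbx21, which encodes the transcription factor T-bet, was at 7.84 and 8.82 in KO preproNK, against 2.54 and 3.01 in KO ALP, and rose by 5.55 (adjusted p = 0.00314). Il2rb, a receptor chain for interleukins 2 and 15, rose by 5.06 (adjusted p = 0.00472), the chemokine gene Ccl5 by 4.38 (adjusted p = 0.00569) and the protease gene Gzmb by 2.07 (adjusted p = 0.0408). The KO ALP values of these 4 genes were below the medians of their arrays (3.93 and 4.01). The sizes of the rises thus include differences near background. Irf8, which encodes a transcription factor of myeloid and lymphoid progenitors, was at 5.92 and 7.49 in KO preproNK, against 9.65 and 9.69 in KO ALP, and fell by 2.96 (adjusted p = 0.0375). In WT the Irf8 difference was similar in size (-2.97, adjusted p = 0.14).

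Over the mean of both genotypes 5 of the 20 were called higher and 1 lower by limma, beside 3.38% of all tested genes. Among the 5 was Il2ra, the alpha chain of the interleukin 2 receptor (4.06, adjusted p = 0.0199).

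Ifng, the interferon gamma gene, was at 4.43 and 5.40 in KO preproNK and 3.11 and 3.92 in WT preproNK, against 2.56 and 2.73 in KO ALP and 2.69 and 2.98 in WT ALP. Only the KO preproNK values were above their array's median, so Ifng passed the filter on dim values only through the group where it was high. The stage difference in KO was 2.27 and was not called (adjusted p = 0.0653 by limma). Its size includes distance below the median in KO ALP. Between KO and WT preproNK 0 of these 20 genes were called. Tbx21 (2.78, adjusted p = 0.188) and Il2rb (2.64, adjusted p = 0.264) had the smallest unadjusted p in that comparison. Many of these genes are also expressed by T cells.

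**Figure D4:**
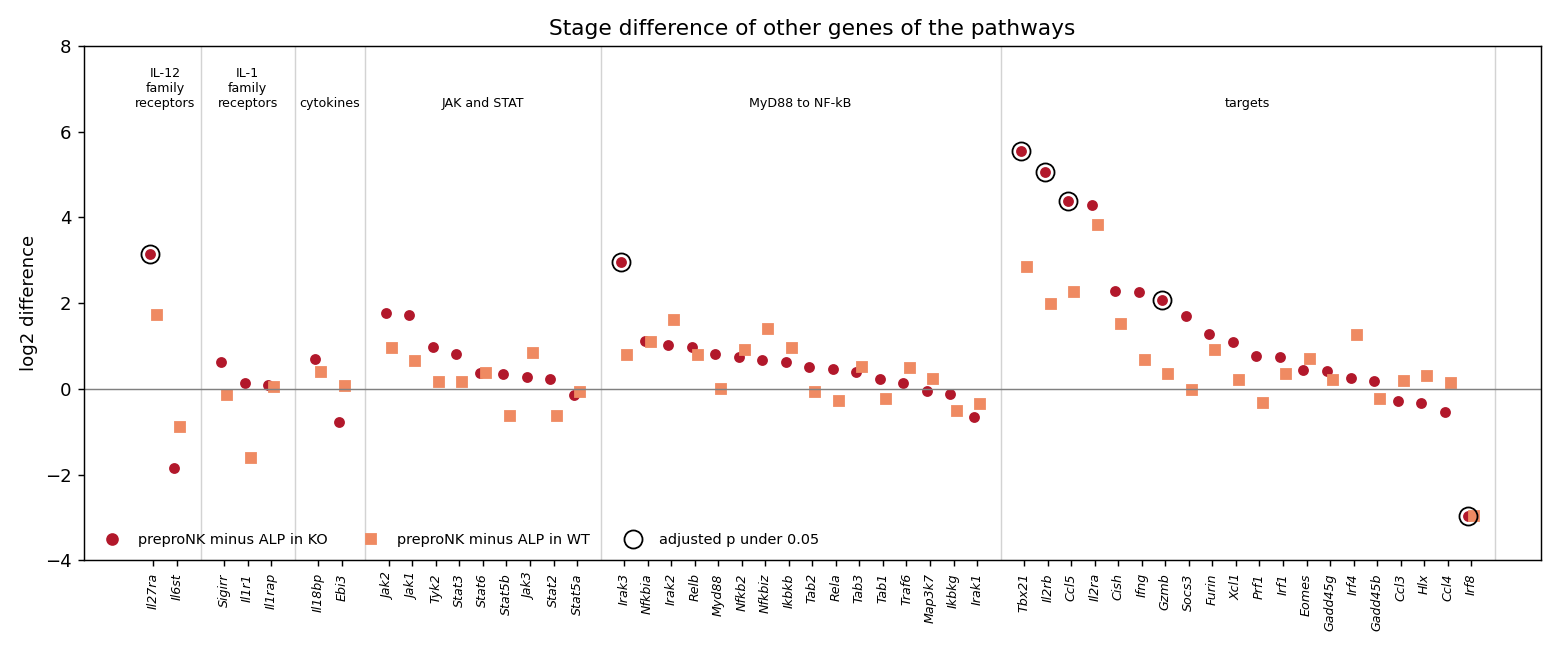
Log2 difference between preproNK and ALP (vertical axis) of the tested genes of each pathway list (horizontal axis) in KO (circles) and in WT (squares). Rings mark an adjusted p under 0.05, which Il27ra, Irak3, Tbx21, Il2rb, Ccl5 and Gzmb had with higher and Irf8 with lower values, all in KO.

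The genes most like each member were taken as the 3 with the highest Pearson r over the 8 arrays, which form 4 groups and share the array with the narrow range. For Il18r1 these were Cast (r = 0.991), Rgs3 (0.991) and Cxcr3 (0.99), a chemokine receptor of activated T and NK cells, whose group means were 9.84 in KO preproNK, 6.91 in WT preproNK, 4.36 in KO ALP and 4.21 in WT ALP. For Il12rb1 they were Rhof (r = 0.991), the Ikaros family gene Ikzf2 (0.991) and the T cell receptor complex gene Cd3g (0.99). For Il12a they were Hdac9 (r = 0.994), Milr1 (0.994) and Wdfy4 (0.992), and for Stat4 Mynn (0.993), Kif21b (0.992) and Cyba (0.99). For Il18rap they were Rab5if (r = 0.993), Smyd2 (0.992) and Crlf2 (0.988), each with its lowest group mean in WT preproNK (5.78, 4.74 and 6.16). Il12rb2 had a range of group means under 1 and was left out.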

How the data were processed

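Per the labels' protocols, RNA went through whole-transcriptome amplification before biotin labelling. The authors deposited 1 log2 value for each probe set and array. The submitters' processing notes name RMA and Partek, with no version. RMA is meant to equalize signal distributions between arrays, which can hide a shift common to most genes. The deposited distributions were still unequal, with SDs of 1.39 to 1.88 and medians of 3.93 to 4.27. The range of the values fits a log2 scale. Precision is limited by the number of arrays.

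Of 45141 probe sets, 28898 had 1 gene symbol in the platform annotation, 551 several and 15692 none here. For each gene the brightest such probe set on average was used, and it was tested if above the median of at least 2 of the 8 arrays. One mean per group was fitted over all 8 arrays with limma 3.58.1 in R 4.3.3 (4 residual degrees of freedom), with Benjamini-Hochberg adjustment over 11583 genes and two-sided tests, and the threshold for a call was an adjusted p of 0.05. The fit was tested on simulated data. A value below an array's median was taken as near background. The 6 comparisons, 9 alternatives and each array left out in turn are given with the closing section. The array weights were equal for the 2 arrays of each group, such as 2.73 in KO preproNK and 0.314 in WT preproNK. They therefore weighted whole groups and did not set WT preproNK replicate 2 apart from replicate 1. Named genes were all 6 members, up to 4 called genes per pathway list and 3 most like each member. Where no gene of a list was called, the 2 with the smallest unadjusted p were named. Cd3e, Klrk1, Cd244a, Ncr1, Il12b, Il18, Il23a, Xist, Eif2s3y, Kdm5d, Tcf4, Tyk2, Myd88 and Ifng were named after their values were seen. Members and lists were chosen with earlier results of these data known. Per the series' design text the 2 replicate numbers stand for 2 processing dates, so they pair arrays across groups. The Y-linked genes also split the arrays by replicate number, so a block for it cannot separate date from any difference in sex. Deviations of replicate 1 arrays from their group means correlated at 0.149 to 0.807 across genes between groups.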

Additional observations from a re-analysis of the deposited data

Results flagged for a closer look

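For 3 results, both replicate pairs moved one way in 1 group and the other way in the second. The Il18r1 difference between KO and WT was 1.61 and 2.63 in preproNK and -0.16 and -0.95 in ALP, and the interaction was 2.67 (SE 0.82, adjusted p = 1 by limma). The Il12a difference between KO and WT was -0.14 and -1.81 in preproNK and 0.44 and 0.28 in ALP, with an interaction of -1.33 (SE 1.14, adjusted p = 1 by limma). The Il18rap difference between preproNK and ALP was 0.12 and 0.62 in KO and -0.68 and -2.01 in WT for the brighter probe set, with an interaction of 1.71 (SE 1.03, adjusted p = 1 by limma). Its second probe set did not share this pattern. There the pairs were -0.08 and 0.37 in KO and -1.21 and -0.51 in WT, with an interaction of 1.0 (SE 0.95).  None of the 3 interactions was called.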

How the results depend on the processing

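No member called in the fit reversed under any of the 9 alternatives or without any 1 array. Il18r1 and Il12a kept their calls in KO and over both genotypes under all 9 alternatives. The Il12rb1 call over both genotypes was lost without the filter on dim probe sets (1.81), with every probe set tested (1.81), with arrays scaled to the same median and MAD (1.69) and with values floored at array medians (1.81). Without 1 array each, Il18r1 ranged from 4.13 to 5.17 in KO and 2.94 to 3.69 over both genotypes, Il12a from -5.99 to -5.03 and -5.50 to -4.19, and Il12rb1 over both genotypes from 1.40 to 2.23.

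Counts of called genes moved far more. Between preproNK and ALP in KO, 203 genes became 449 with the replicate number as a block, 902 with array weights and 1238 with the block and without WT preproNK replicate 2, and 0 to 530 without 1 array. In WT, 11 genes (4 higher, 7 lower) became 6 without the filter, 67 with the block, 73 with repeated quantile normalization (42 higher, 31 lower), 18 with scaled arrays, 1 with array weights and 431 with the block and without WT preproNK replicate 2, and 0 to 824 without 1 array. Over both genotypes, 391 became 852 with the block and 1661 with the block and without that array, and 35 to 1058 without 1 array. Between KO and WT preproNK, 0 became 10 with the block and 47 with the block and without that array, and 0 to 2532 without 1 array. Repeated quantile normalization moved the median difference of all genes there from 0.147 to -0.041. Besides the calls given above for Il12rb1 in KO and Stat4 over both genotypes, the block alone changed no member's call.

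Members not called in the fit changed sign in some settings, and the cause was not tested. With repeated quantile normalization, Il18rap between KO and WT ALP was -0.01 and the Stat4 interaction -0.08. With the block and without WT preproNK replicate 2, Il12rb2 between preproNK and ALP in WT was 0.30, Il12a between KO and WT preproNK 0.38, its interaction 0.02 and the Stat4 interaction -0.20. With the floor, Il12rb2 was 0.10 between preproNK and ALP in WT and -0.08 between KO and WT ALP. Without 1 array, Il18rap ranged from -0.04 to 0.78 between preproNK and ALP in KO, -1.05 to 0.07 over both genotypes and -0.22 to 0.69 between KO and WT ALP. Il12rb1 ranged from -0.04 to 0.28 and Il12rb2 from -0.17 to 0.28 between KO and WT ALP, and Il12rb2 from -0.54 to 0.52 between preproNK and ALP in WT. Il12a ranged from -2.29 to 0.34 between KO and WT preproNK. Stat4 ranged from -0.20 to 1.82 there, -0.33 to 1.26 in ALP and -0.66 to 1.35 for the interaction.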
